A study of Rattus norvegicus with 24 samples.

Results

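The transcripts of 7 ubiquitin ligases and 3 FoxO transcription factors were followed through disuse atrophy, recovery and repeated disuse atrophy of the tibialis anterior (TA), the main ankle dorsiflexor, of aged rats. The genes were taken by name: the ligases Fbxo32, Trim63, Trim54, Trim55, Fbxo30, Fbxo21 and Traf6, and the factors Foxo1, Foxo3 and Foxo4. All 10 were in the table, among 13458 gene symbols and each had a single row. The animals were male Fischer 344 rats of 23 months in which tetrodotoxin (TTX), a sodium channel blocker, was infused onto the left common peroneal nerve so that the dorsiflexors fell silent. Atrophy limbs were left TAs after 6 to 7 days of TTX (n = 3). Recovery limbs were left TAs after 9 further days without TTX (n = 3), and repeated atrophy limbs were left TAs after a further 5 to 6 days of TTX on top of both earlier periods (n = 3). Control was the untreated right TA of the same 9 animals, so every control limb belonged to an animal whose left nerve had been blocked. In 3 sham animals, 1 for each time point, saline replaced TTX, and their left and right TAs were kept as groups of their own (n = 3 each). No young animals and no females were included. Animals are numbered 1 to 3 within each group in the order of the sample records.

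Libraries were made from poly-A RNA and values are CPM, read counts scaled to the same total in each library. The depth inferred from the smallest steps between values was 18860000 to 30890000 reads a library, so that 1 read was worth 0.0324 to 0.0530 CPM. The tissue carried the markers of muscle fibre in every library, with a summed level of 47610 to 122700 CPM for the 6 marker genes, among them Acta1 and Ckm. In whole tissue, fewer cells of a type and less RNA per cell cannot be told apart. The level of a median gene moved with the condition on the CPM scale, by 0.22 on the log2 scale in atrophy, 0.02 in recovery and 0.20 in repeated atrophy against control. Values were therefore also rescaled by trimmed means (TMM), which brought the median of all genes to 0.00 in atrophy, 0.01 in recovery and -0.01 in repeated atrophy. The 10 most abundant genes took 13.0% to 25.6% of counts in atrophy and 15.6% to 19.2% in repeated atrophy limbs, against 24.2% to 32.7% in control and 25.8% to 27.7% in recovery limbs, and their part in these shifts was not tested.

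Muscle loses protein in disuse in good part through the ubiquitin proteasome system, in which a ligase tags a substrate with ubiquitin and the proteasome degrades it. Fbxo32 (atrogin-1) is the F-box subunit of an SCF ligase, and Trim63 (MuRF1) is a RING ligase of the sarcomere. Both are the standard transcript markers of atrophy and are known as targets of the FoxO factors, which insulin and IGF signalling keep out of the nucleus through Akt. Trim54 (MuRF3) and Trim55 (MuRF2) are the sarcomere and microtubule-bound relatives of Trim63. Fbxo30 (MUSA1) and Fbxo21 (SMART) are further F-box proteins named for muscle wasting, and Traf6 is a RING ligase that builds signalling chains of ubiquitin. FoxO activity is set largely by phosphorylation and location, which transcript levels do not measure.

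The upstream regions of the ligases that the results turn on most are shown because these genes differed in how they moved although all are listed as atrophy ligases. RefSeq start sites of build GRCr8 were found for 6 of the 10 genes (Trim63, Trim54, Fbxo30, Fbxo21, Foxo1 and Foxo4), and not for Fbxo32, Trim55, Foxo3 and Traf6. The 250 bases before the start are printed 5' to 3' on the strand of the gene, with the letters searched in capitals. These were GTAAACA, the core recognised by FoxO factors, CAAAACA, a related insulin response core, and CAGCTG, an E-box of the kind bound by myogenic factors, each on both strands. Trim63 lies at chr5:151816986-151817235 (plus strand), Trim54 at chr6:30978476-30978725 (minus strand) and Fbxo30 at chr1:7475589-7475838 (plus strand).
Trim63: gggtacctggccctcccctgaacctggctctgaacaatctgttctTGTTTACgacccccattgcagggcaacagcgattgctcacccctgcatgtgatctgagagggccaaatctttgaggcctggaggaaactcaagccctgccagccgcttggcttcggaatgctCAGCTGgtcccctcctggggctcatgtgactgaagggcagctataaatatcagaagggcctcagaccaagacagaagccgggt
Trim54: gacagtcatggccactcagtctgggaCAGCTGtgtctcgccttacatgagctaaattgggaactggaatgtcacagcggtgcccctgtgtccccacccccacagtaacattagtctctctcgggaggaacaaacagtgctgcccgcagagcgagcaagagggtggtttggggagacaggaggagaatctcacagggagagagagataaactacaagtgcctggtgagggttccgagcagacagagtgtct
Fbxo30: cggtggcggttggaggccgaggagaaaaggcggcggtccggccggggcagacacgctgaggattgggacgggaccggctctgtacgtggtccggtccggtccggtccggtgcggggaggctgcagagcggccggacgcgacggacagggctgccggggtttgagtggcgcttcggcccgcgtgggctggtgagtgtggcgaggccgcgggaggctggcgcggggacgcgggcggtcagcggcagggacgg
The Trim63 window held GTAAACA on the minus strand at positions -205 to -199 from the start site, and CAGCTG at -83 to -78. The Trim54 window held CAGCTG at -224 to -219. No match to the 3 motifs lay in the windows of Fbxo30, Fbxo21, Foxo1 or Foxo4, and no 2 matches overlapped. Among 33469 rat promoter windows of the same length, 3.22% held GTAAACA, 5.46% held CAAAACA and 12.0% held CAGCTG. Base composition set the windows apart: the Fbxo30 window was 75.6% G or C with 36 CG steps and that of Foxo1 74.4% with 40, while Trim63 had 56.8% with 5 and Trim54 55.2% with 6, near the median window of 51.2% with 5. A match or its lack in these letters says nothing of binding.

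Levels in the untreated TA spanned a wide range once divided by transcript length. In the 9 control limbs the mean level per kilobase (kb) of transcript was highest for Trim54 with 338 ± 75.5 CPM per kb (SD, n = 9), followed by Trim63 with 238 ± 307 and Foxo4 with 102 ± 21.8. Trim55 stood at 44.9 ± 4.49 CPM per kb and Fbxo32 at 21 ± 26.3. Fbxo21 (5.83 ± 0.870), Fbxo30 (5.62 ± 2.08) and Foxo1 (5.19 ± 2.68) lay within their spread of each other. Foxo3 had 1.04 ± 0.515 CPM per kb and Traf6 0.485 ± 0.180. Of the FoxO factors, the transcript of Foxo4 was therefore far above that of Foxo1 and Foxo3. Without its highest limb, the right limb of atrophy animal 3, Trim63 had a mean of 137 ± 53.7 CPM per kb and Fbxo32 12.7 ± 8.66 (SD, n = 8). With all 9 limbs the SDs of Fbxo32 and Trim63 were larger than their means, whereas Trim55 varied by 1.32-fold from its lowest to its highest control limb.

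**Figure D1:**
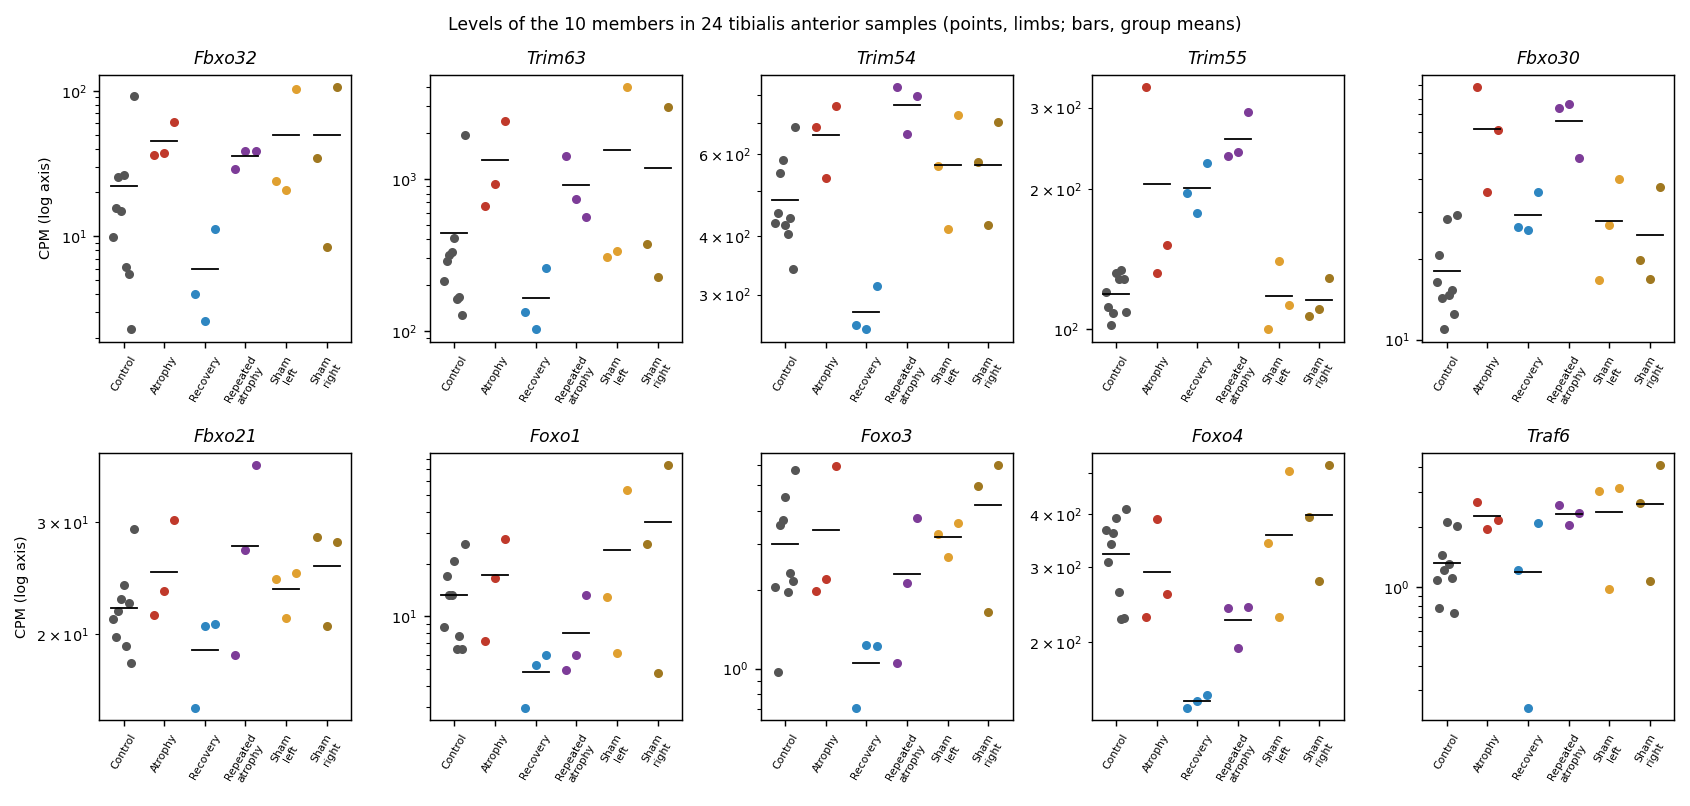
Level of each of the 10 genes in 24 TA samples. The y axis is CPM on a log scale with its own range in each panel, each point is a limb and each bar a group mean. Fbxo32 in control runs from 2.29 to 92.4 CPM, while all 3 repeated atrophy limbs of Fbxo30 (47.7 to 76.3 CPM) and Trim55 (236 to 294 CPM) lie above every control limb.

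In the first atrophy, 3 ligases rose and no FoxO factor was a DEG. Fbxo30 was 3.24-fold, Trim63 3.82-fold and Trim55 1.58-fold higher than in control on the log2(CPM + 1) scale, and these 3 of 10 genes were differentially expressed (DEGs, which here means changed by 1.2-fold or more with p no higher than 0.05 after Benjamini-Hochberg adjustment over the 14031 rows tested in limma). Over all rows, 20.3% were DEGs in this direction and 2.33% in the other. Fbxo32, at 3.06-fold, was not a DEG (log2 change 1.61, SE 0.67, adjusted p = 0.089). Within the atrophy animals, the left minus right log2 difference averaged 0.56 ± 1.18 for Fbxo32 and 1.04 ± 0.67 for Trim63 (SD, n = 3 each). Fbxo30 was the single member above control in every limb, against 4.75% of all rows. After rescaling, Fbxo30 alone was a DEG (log2 change 1.34, adjusted p = 0.010, against 4.73% of rows higher and 4.95% lower), and Trim63 (1.57, adjusted p = 0.086) and Trim55 (0.30, adjusted p = 0.32) were not. With the animal as a fixed block, none of the 10 genes was a DEG in limma and neither was any of the rows (0%). Of the genes, 4 had an unadjusted p under 0.05 (Fbxo30, Trim55, Trim63 and Foxo4), against 19.1% of all rows. With a random animal effect, Fbxo30, Trim55 and Trim63 were still DEGs. Without atrophy animal 1 no member was a DEG (Fbxo30 log2 change 1.39, adjusted p = 0.13; Trim63 2.26 and 0.14; Trim55 0.25 and 0.35). Trim63 also lost its call without recovery animal 1 or 2 (adjusted p = 0.057 and 0.052) and with all 12 right limbs as control (1.66, adjusted p = 0.11), and Trim54 was a DEG without atrophy animal 2 (0.60, adjusted p = 0.037).

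After recovery, Trim55 was above control while Trim54 and Foxo4 were below it. Trim55 was 1.68-fold higher (log2 change 0.75, SE 0.20, adjusted p = 0.028), against 4.4% of rows higher. Foxo4 was at 0.464 of control (-1.11, SE 0.19, adjusted p = 0.0037) and Trim54 at 0.586 (-0.77, SE 0.18, adjusted p = 0.018), against 3.33% of rows lower and 7.73% in either direction. Foxo1 was also below every control limb (-1.21, SE 0.42) but was a DEG only after rescaling (adjusted p = 0.081 as deposited and 0.045 rescaled, against 6.04% of rows lower and 6.02% higher). Within the recovery animals, its left minus right log2 difference averaged -0.49 ± 0.41 (SD, n = 3). Trim55 lay above control in every limb (5.57% of rows) and Trim54, Foxo1 and Foxo4 below it (4.84% of rows). With the animal as a fixed block no member was a DEG in limma, and 0.0428% of rows were higher and 0.0214% lower. Of the members, 5 had an unadjusted p under 0.05 (Fbxo30, Trim55, Trim54, Foxo3 and Foxo4) against 18% of rows. With a random animal effect, Trim55, Trim54 and Foxo4 were still DEGs. Without recovery animal 1 or 2, Foxo4 was the DEG that remained among the members: Trim54 had adjusted p = 0.11 and 0.095, and Trim55 0.13 and 0.064. Trim55 also lost its call without recovery animal 3 (0.12) or repeated atrophy animal 2 (0.060). Fbxo30 became a DEG without atrophy animal 2 (0.81, adjusted p = 0.043) and Foxo3 without repeated atrophy animal 1 (adjusted p = 0.046).

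In repeated atrophy, Fbxo30 and Trim55 rose under every scaling and with the animal as a block. Fbxo30 was 3.61-fold higher (log2 change 1.85, SE 0.29, adjusted p = 2.0e-04), Trim55 2.14-fold (1.10, SE 0.20, adjusted p = 5.4e-04) and Trim54 1.63-fold (0.70, SE 0.18, adjusted p = 0.0067), 3 DEGs against 28.1% of rows higher, 6.24% lower and 34.3% in either direction. Trim63 (1.5, SE 0.60, adjusted p = 0.061) and Fbxo32 (1.31, SE 0.67, adjusted p = 0.15) were not DEGs. Trim55 and Fbxo30 were above control in every limb, against 16.5% of rows, and no member was below it in every limb (3.87% of rows). When limbs were paired within animals, Fbxo30 (2.05, adjusted p = 0.0036), Trim55 (1.25, adjusted p = 0.0058) and Trim63 (1.42, adjusted p = 0.019) were higher, against 21.5% of rows, and Foxo4 (-0.58, adjusted p = 0.030) and Foxo1 (-0.88, adjusted p = 0.048) were lower, against 5.66% of rows. Rescaled, Fbxo30 and Trim55 were higher (13.1% of rows) and Foxo4 lower (-0.87, adjusted p = 0.0039; 12.1% of rows), and Trim54 was no longer a DEG (0.32, adjusted p = 0.15). Rescaled and paired, Fbxo30 and Trim55 were higher (11% of rows) and Foxo1 and Foxo4 lower (10.1% of rows). Without atrophy animal 3, Trim63 (1.83, adjusted p = 0.0011) and Fbxo32 (1.64, adjusted p = 0.023) became DEGs in repeated atrophy, and so did Traf6 (0.61, adjusted p = 0.046). Foxo4 became one without recovery animal 2 or 3 (-0.54 in both, adjusted p = 0.042 and 0.040) and with all 12 right limbs as control (-0.56, adjusted p = 0.044), and Traf6 without atrophy animal 2 (adjusted p = 0.039) or recovery animal 2 (adjusted p = 0.044).

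**Figure D2:**
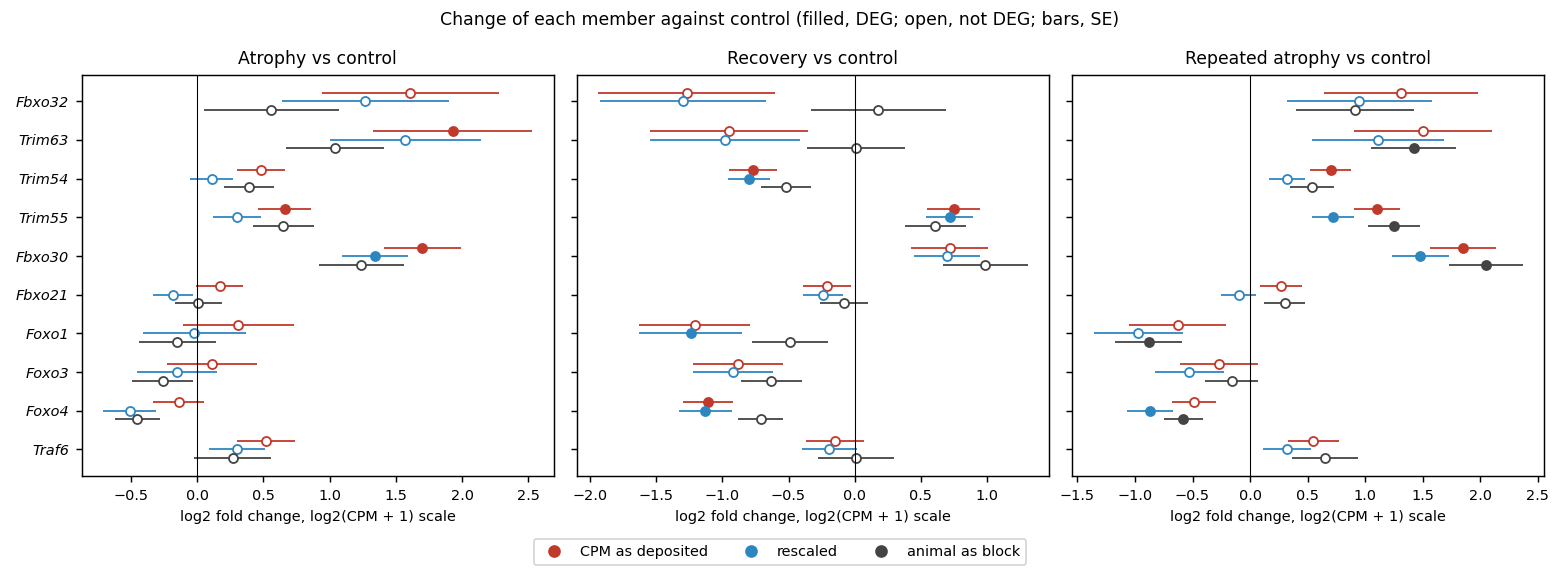
Change of each gene against the 9 control limbs in atrophy, recovery and repeated atrophy. The x axis is the log2 fold change on the log2(CPM + 1) scale with its SE as a bar, for CPM as deposited, for rescaled values and with the animal as a block, and filled points are DEGs. Fbxo30 and Trim55 are filled in all 3 fits in repeated atrophy (1.85 and 1.10 as deposited), and the FoxO factors lie left of 0 in recovery and repeated atrophy.

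Trim63 (chr5:146533517-146547294 in rn7, plus strand) and Fbxo32 (chr7:89731626-89764762, minus strand) also differed widely between animals, in both limbs. Trim63 had 662, 923 and 2389 CPM in the atrophy limbs of animals 1, 2 and 3, against 212, 408 and 1925 CPM in their own right limbs. The left limb was higher in all 3, by 3.12-, 2.26- and 1.24-fold. In repeated atrophy, Trim63 had 1414, 738 and 562 CPM in the left limbs and 287, 318 and 332 CPM in the right, a ratio of 4.93, 2.32 and 1.69. Fbxo32 had 36.1, 37.6 and 61.3 CPM in the atrophy limbs and 9.88, 26.5 and 92.4 CPM in the right limbs of these animals, so that it was lower on the silenced side of animal 3. In repeated atrophy, Fbxo32 was higher on the left in all 3 animals, with 28.9, 38.6 and 38.8 CPM against 15.7, 25.7 and 14.9 CPM. The right limb of atrophy animal 3 was the highest control limb for both genes, and the next highest had 408 CPM of Trim63 and 26.5 CPM of Fbxo32.

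Sham animal 3 showed the same 2 genes at still higher levels in limbs that never received TTX. Trim63 was at 4029 CPM in its left and 2957 CPM in its right TA, against 227 to 372 CPM in the other 4 sham limbs. Fbxo32 was at 103 and 107 CPM, against 8.42 to 34.6 CPM in the others. Foxo1 was likewise highest in this animal, at 53.2 and 74.1 CPM. These levels were above every TTX limb of the study for all 3 genes. Against control, 0 members were DEGs in the sham left limbs in limma (0% of all 13822 rows), and 0 members had an unadjusted p under 0.05, against 13.8% of rows. The same count of 0 members held after rescaling and for left against right within the sham animals. The share of DEGs in the whole set was 0% in both settings. An unadjusted p under 0.05 was reached by 8.59% of all rows rescaled and by 4.27% of 13483 rows for left against right. A count of 0 therefore does not set the members apart from other rows. The 4 satellite cell markers summed to 9.69 to 73.1 CPM in sham left and 7.52 to 56.8 CPM in sham right limbs against 9.58 to 16.8 CPM in control, and the 6 muscle fibre markers to as little as 49140 CPM in a sham left limb. Their part in the result was not tested.

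**Figure D3:**
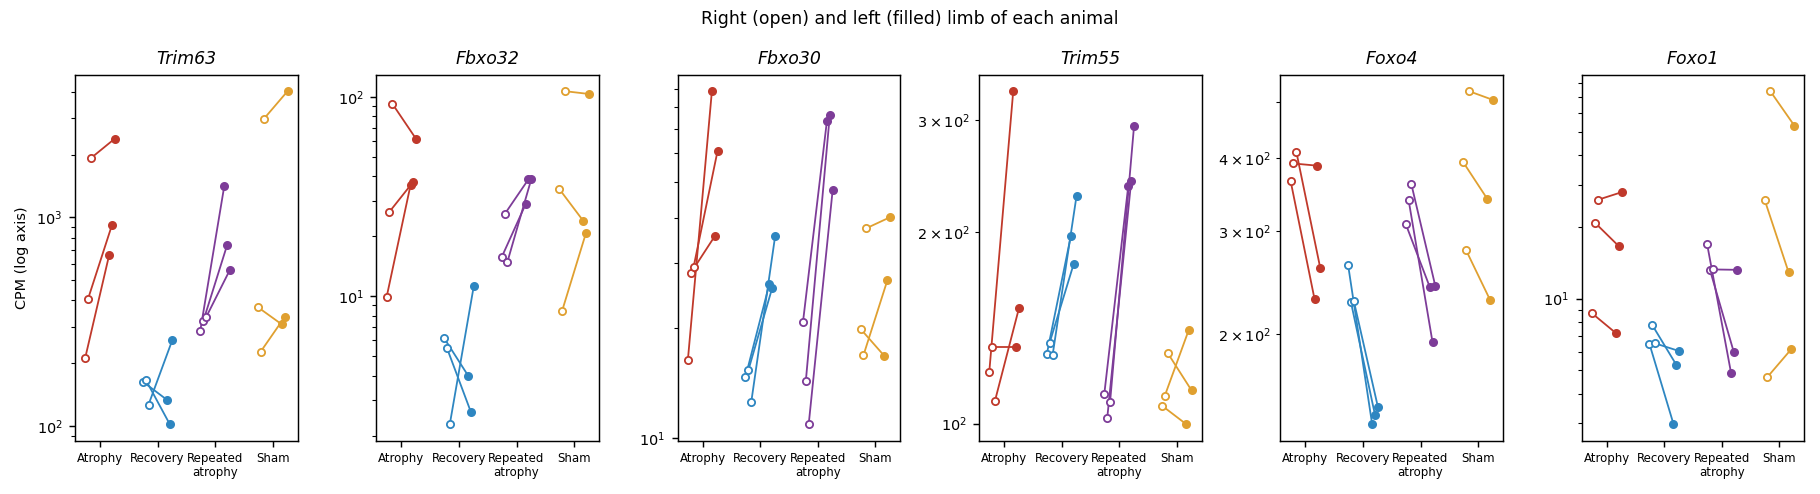
Both limbs of each animal for 6 genes. The y axis is CPM on a log scale, open points are right and filled points left limbs, and lines join the limbs of an animal. The Trim63 lines of atrophy animal 3 (1925 to 2389 CPM) and sham animal 3 (2957 to 4029 CPM) lie above all others, while the Fbxo30 lines rise in all 9 TTX animals.

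Fbxo30 (chr1:5655575-5671457, plus strand) was higher on the left than on the right in all 9 TTX animals. It had 88.6, 35.6 and 61.0 CPM in the atrophy limbs against 16.4, 28.2 and 29.4 CPM on the right. In repeated atrophy the left limbs had 73.6, 76.3 and 47.7 CPM against 20.7, 14.3 and 10.9 CPM on the right, a ratio of 3.55, 5.32 and 4.37. In recovery Fbxo30 was at 26.4, 25.8 and 35.6 CPM on the left and 14.7, 15.3 and 12.5 CPM on the right. The recovery limbs had a mean between control and both atrophy groups, but Fbxo30 was not a DEG in them (log2 change 0.72, adjusted p = 0.12). Fbxo21 (chr12:38571021-38605134, minus strand), the other wasting-related F-box gene here, was a DEG in no comparison with control. It had 21.5, 23.4 and 30.2 CPM in the atrophy limbs against 21.1, 23.9 and 29.3 CPM on the right, and 18.6, 27.1 and 36.9 CPM in repeated atrophy. Its log2 change was 0.17 in atrophy, -0.21 in recovery and 0.27 in repeated atrophy with SE 0.18, and the sign in atrophy and repeated atrophy turned after rescaling (-0.18 and -0.10).

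The Trim63 relatives Trim55 (chr2:102100249-102142169, plus strand) and Trim54 (chr6:25239340-25258512, minus strand) moved in opposite directions in recovery. Trim55 had 333, 132 and 152 CPM in the atrophy limbs, 197, 178 and 228 CPM in recovery and 236, 240.1 and 294 CPM in repeated atrophy, against 102 to 134 CPM in control. Its atrophy mean of 205 CPM was pulled up by animal 1, and animal 2 had the same level in both limbs (132 CPM). Trim54 had 684, 534 and 758 CPM in atrophy, 258, 253 and 314 CPM in recovery and 835, 661 and 799 CPM in repeated atrophy, against 341 to 685 CPM in control. The recovery limbs of Trim54 were thus all below, and those of Trim55 all above, every control limb. In recovery, Trim54 was lower on the left in all 3 animals (258, 253 and 314 against 404, 438 and 341 CPM) and Trim55 higher in all 3 (197, 178 and 228 against 128, 134 and 128 CPM).

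Of the FoxO factors, Foxo4 (chrX:66385558-66392116, plus strand) was lower than control after recovery, and Foxo1 (chr2:136312168-136387791, plus strand) lay below every control limb. Foxo3 (chr20:45673618-45764607, minus strand) was the scarcest of them. Foxo4 had 141, 146 and 150.4 CPM in the recovery limbs, 229.7, 389 and 259 CPM in atrophy and 241, 194 and 242 CPM in repeated atrophy, with 227 to 410.3 CPM in control. On the left side it was lower than on the right in all 9 TTX animals, and the within-animal log2 difference averaged -0.45 ± 0.38 in atrophy, -0.71 ± 0.16 in recovery and -0.58 ± 0.23 in repeated atrophy (SD, n = 3 each). Foxo4 was also lower on the left in the 3 sham animals as deposited, by a smaller mean of -0.18 ± 0.12 (SD, n = 3). Rescaled, sham animal 3 was at 0.01. Foxo1 had 2.99, 5.28 and 6.03 CPM in recovery and 4.90, 5.96 and 13.2 CPM in repeated atrophy, against 6.46 to 26.0 CPM in control. Foxo3 was low throughout, with 1.97, 2.19 and 5.95 CPM in atrophy, 0.709, 1.23 and 1.22 CPM in recovery and 1.05, 2.13 and 3.74 CPM in repeated atrophy, and was a DEG in no comparison with control. In atrophy, all 3 factors had log2 changes within their SE of 0 as deposited (Foxo1 0.31, SE 0.42; Foxo3 0.11, SE 0.34; Foxo4 -0.14, SE 0.19), and those of Foxo1 and Foxo3 turned below 0 after rescaling (-0.02 and -0.15). Rescaled, Foxo4 was at -0.51 (SE 0.20, adjusted p = 0.11) in atrophy.

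Traf6 (chr3:87963517-87983351, plus strand) had the lowest mean per kilobase in control. It had 2.69, 1.96 and 2.18 CPM in atrophy, 1.22, 0.246 and 2.09 CPM in recovery and 2.60, 2.06 and 2.37 CPM in repeated atrophy, against 0.735 to 2.12 CPM in control. Its log2 change was 0.52 (SE 0.22, adjusted p = 0.097) in atrophy and 0.55 (SE 0.22, adjusted p = 0.063) in repeated atrophy. At these levels, 0.246 CPM corresponds to a few reads.

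The untreated right limbs differed between the animal groups, and since all 9 serve as control, every comparison with control is to be read beside that. Fbxo32 in the right limbs of the recovery animals was 2.29, 5.49 and 6.17 CPM, below the 9.88 to 92.4 CPM of the other 6 control limbs. Trim63 was 127 to 167 CPM in these limbs against 212 to 1925 CPM in the others, and Foxo1 6.46 to 7.74 against 8.69 to 26.0 CPM. Foxo4 was 227 to 263 CPM against 309 to 410.3 CPM. The right limbs of the recovery animals thus lay below all 6 right limbs of the other TTX animals in 4 of the 10 genes, against 8.07% of all rows, and above them in 0 (2.82% of all rows). This split was noticed in the data and not tested. The left limbs of the recovery animals carried more fibroblast and macrophage marker RNA than control, with fibroblast markers summed to 1083 to 2042 CPM against 219.6 to 576 CPM in control (5 of 6 markers DEGs) and macrophage markers to 364 to 708 against 95.0 to 334 CPM (4 of 8 DEGs), none of them at 0. Their part in the lower members was not tested.

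Several members fell into recovery and rose out of it. From atrophy to recovery, 5 members fell: Fbxo32 (log2 change -2.88, SE 0.82, adjusted p = 0.024), Trim63 (-2.88, SE 0.73, adjusted p = 0.015), Trim54 (-1.25, SE 0.22, adjusted p = 0.0052), Foxo1 (-1.52, SE 0.51, adjusted p = 0.048) and Foxo4 (-0.97, SE 0.24, adjusted p = 0.014), against 14.5% of rows lower and 3.34% higher (17.9% in either direction). In 7 of 10 genes the recovery limbs lay below every atrophy limb, against 26.8% of rows, and in none above (7.27% of rows). Rescaled, 3 fell (Fbxo32, Trim63 and Trim54), against 5.2% of rows lower and 5.48% higher. From recovery to repeated atrophy, 4 members rose: Fbxo32 (2.58, SE 0.82, adjusted p = 0.027), Trim63 (2.45, SE 0.73, adjusted p = 0.020), Trim54 (1.47, SE 0.22, adjusted p = 7.8e-04) and Fbxo30 (1.13, SE 0.35, adjusted p = 0.024), against 21% of rows higher and 6.29% lower (27.2% in either direction). In 6 genes the repeated atrophy limbs lay above every recovery limb, against 32% of rows, and in none below (10.5% of rows). Rescaled, Fbxo30 was no longer a DEG there (0.78, adjusted p = 0.074), with 10.5% of rows higher and 11.1% lower. The groups are different animals, and with the animal as a block these contrasts became differences of within-animal differences: Fbxo32 went from -2.88 to -0.38 and from 2.58 to 0.73, and Trim63 from -2.88 to -1.03 and from 2.45 to 1.41. No member was then a DEG in limma for either step (0.0143% of rows lower into recovery, 0.0214% higher out of it), with 1 member (Trim54) and 3 members (Fbxo30, Trim54 and Trim63) at an unadjusted p under 0.05 against 7.96% and 19.7% of rows. With a random animal effect in place of this fixed block, Fbxo32, Trim63, Trim54 and Foxo4 were still DEGs into recovery. Fbxo32, Trim63, Trim54 and Fbxo30 were still DEGs out of it. As deposited, without recovery animal 1 or 2, Trim54 was the DEG that remained into recovery (Fbxo32 adjusted p = 0.090 and 0.11, Trim63 0.066 and 0.079, Foxo4 0.061 and 0.052, Foxo1 0.17 and 0.11). Fbxo32 also lost its call into recovery without atrophy animal 1 (adjusted p = 0.064), and Foxo1 kept its call without atrophy animal 1 but lost it without any of the other 8 animals (-2.01 to -1.10 over all 9). Out of recovery, Trim54 kept its call without each animal (1.41 to 1.57). Without recovery animal 1 or 2 or repeated atrophy animal 1 or 2, Fbxo32 (2.21 to 2.71), Trim63 (2.07 to 2.54) and Fbxo30 (1.01 to 1.06) were not DEGs, nor was Fbxo32 without repeated atrophy animal 3 (adjusted p = 0.078).

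Repeated and initial atrophy could not be told apart for these genes. Of the 10, 0 were DEGs between them in limma, against 0.0356% of rows, and 0 had an unadjusted p under 0.05, against 6.30% of rows. Log2 changes were -0.31 (SE 0.82) for Fbxo32, -0.44 (SE 0.73) for Trim63, 0.16 (SE 0.35) for Fbxo30, 0.44 (SE 0.24) for Trim55 and -0.95 (SE 0.51) for Foxo1. The signs of Fbxo32 and Trim63 turned with the animal as a block (0.35 and 0.38). Fbxo30 differed more within animals, where left minus right averaged 1.24 ± 1.04 in atrophy and 2.05 ± 0.28 in repeated atrophy (SD, n = 3 each). With 3 limbs a group, SEs of this size leave room for changes of over 1.5-fold in either direction for Fbxo32 and Trim63.

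Within the 9 control limbs, Fbxo32, Trim63 and Foxo1 varied together. Only the 6 pairs among these genes and Foxo3 were tested, so Foxo4 and the other members were left out. Over log2(CPM + 1), Fbxo32 and Trim63 had Pearson's r = 0.95 (exact permutation test, two-sided, p = 3.9e-05, adjusted over 6 pairs 2.3e-04) and Spearman's rho = 0.93 (exact p = 7.5e-04, adjusted 0.0022). Fbxo32 and Foxo1 had r = 0.92 (exact p = 1.8e-04, adjusted 3.7e-04) and rho = 0.90 (exact p = 0.0020, adjusted 0.0041), and Trim63 and Foxo1 r = 0.88 (exact p = 8.0e-05, adjusted 2.4e-04) and rho = 0.93 (exact p = 7.5e-04, adjusted 0.0022). Without the 2 limbs farthest from the median, r was 0.95, 0.89 and 0.94. The p-values take all 9 limbs as exchangeable, although the right limbs of the recovery animals were low in all 3 genes. For this reason r was also taken after subtracting the mean of each animal group, without a p-value. It was then 0.93, 0.79 and 0.80. Foxo3 followed less closely, with r = 0.70 to Trim63 (exact p = 0.032, adjusted 0.048), 0.66 to Fbxo32 (exact p = 0.052, adjusted 0.063) and 0.55 to Foxo1 (exact p = 0.12, adjusted 0.12), rho = 0.75 (exact p = 0.025, adjusted 0.038), 0.58 (exact p = 0.11, adjusted 0.11) and 0.60 (exact p = 0.097, adjusted 0.11). These fell to 0.53, 0.49 and 0.49 without the 2 farthest limbs and to 0.60, 0.60 and 0.44 within animal groups, and rose to 0.90 with Trim63, 0.91 with Fbxo32 and 0.98 with Foxo1 without the right limb of repeated atrophy animal 1, so that single limbs moved them in either direction. Trim63 with Foxo3 passed 0.05 after adjustment with all 9 limbs and without the right limb of repeated atrophy animal 1, and not without any other limb.

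**Figure D4:**
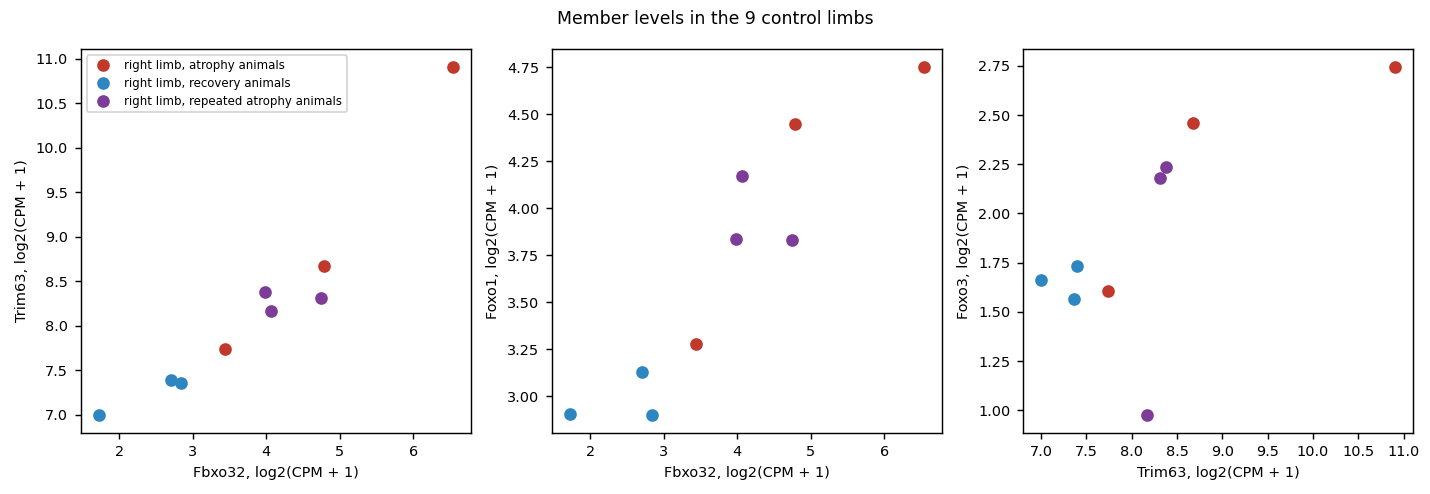
Levels of 3 pairs of genes in the 9 control limbs. Both axes are log2(CPM + 1), each point is a right limb and colours give the group of its animal. The points of Fbxo32 with Trim63 and with Foxo1 lie along a line (r = 0.95 and 0.92), the recovery animals lie lowest in both pairs, and the points of Trim63 with Foxo3 scatter more (r = 0.70).

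Over all 24 samples, which mix conditions and both limbs of each animal, other genes had profiles close to those of the atrophy markers. By Pearson's r of log2(CPM + 1) among 6766 rows with a mean of at least 10 CPM, the nearest to Trim63 were Maff (0.971), Lrrc59 (0.965), Zfand2a (0.960), Tnfrsf12a (0.959), the TWEAK receptor, and Chkb (0.957). The nearest to Fbxo32 were Tmem140 (0.958), Ino80 (0.951), Wbp1l (0.949), Lrrc2 (0.949) and Actr8 (0.948). Fbxo32 and Trim63 had 0.925 with each other. The nearest to Foxo1 were Acsf2 (0.939), Lipe (0.926), the hormone-sensitive lipase, Sgms1 (0.917), Klf15 (0.902), a glucocorticoid-induced transcription factor, and Pim3 (0.902). Trim55 had low values with all 3 of these genes, at -0.007 with Fbxo32, 0.049 with Trim63 and -0.422 with Foxo1, and Fbxo30 was at 0.557, 0.631 and 0.091 with the same 3.

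Known targets of FoxO factors moved in both directions. Of 25 listed targets tested, 7 were higher and 1 lower in atrophy, 1 and 1 in recovery, and 10 and 3 in repeated atrophy (median log2 change 0.41, against 0.20 over all rows). Over all rows, 20.3% were higher and 2.33% lower in atrophy, 4.4% and 3.33% in recovery, and 28.1% and 6.24% in repeated atrophy. After rescaling 3 were higher and 2 lower in atrophy (4.73% and 4.95% of all rows), and 5 and 6 in repeated atrophy (13.1% and 12.1%). Paired by animal, no row of the table was a DEG in atrophy in limma, targets and the other lists included, while 19.1% of rows had an unadjusted p under 0.05. In repeated atrophy, the largest rises were in Gadd45a, a growth arrest and DNA damage response gene, with 1743 ± 528 CPM (SD, n = 3) against 127 ± 82.8 (SD, n = 9) in control (log2 change 4.04, adjusted p = 1.4e-04), in Cdkn1a, the cell cycle inhibitor p21, with 1036 ± 133 against 102 ± 46.8 (3.53, adjusted p = 2.5e-04) and in Ctsl, a lysosomal protease, with 1140.0 ± 210.1 against 259.9 ± 188 (2.46, adjusted p = 0.0022). The largest falls in repeated atrophy were in Sesn1, a stress-induced inhibitor of mTORC1 signalling (-0.84, adjusted p = 0.034), Txnip, an inhibitor of thioredoxin (-0.76, adjusted p = 0.019) and Sod2, the mitochondrial superoxide dismutase (-0.65, adjusted p = 0.0034). Txnip was not a DEG when limbs were paired by an animal block (-0.51, adjusted p = 0.082). Sesn1 was not a DEG without repeated atrophy animal 1, 2 or 3 (adjusted p = 0.13, 0.16 and 0.068), and Txnip not without animal 1 or 2 (0.089 and 0.065).

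Among activators of ligase transcription other than the FoxO factors, Myog and Runx1 rose in both periods of atrophy. Of 13 tested, 6 were higher and 0 lower in atrophy (20.3% and 2.33% of all rows), 0 and 1 in recovery (4.4% and 3.33%), and 5 and 0 in repeated atrophy (28.1% and 6.24%). Rescaled, 3 were higher and 2 lower in atrophy (4.73% and 4.95% of all rows), 0 and 3 in recovery (6.02% and 6.04%), and 5 and 3 in repeated atrophy (13.1% and 12.1%). With limbs paired by animal, 5 were higher and 2 lower in repeated atrophy (21.5% and 5.66% of all rows). The 4 satellite cell markers summed to 15.7 to 90.9 CPM in atrophy and 40.2 to 71.2 CPM in repeated atrophy. In control the sum was 9.58 to 16.8 CPM. Of the 4, 1 was a DEG in each atrophy and none was at 0. Their median log2 change was 0.15 in atrophy and 0.14 in repeated atrophy, against 0.22 and 0.20 over all rows. The part of these markers in the result was not tested. Myog, which together with its relatives controls ligase genes after denervation, had 528 ± 109 CPM in repeated atrophy and 465 ± 299 in atrophy against 57.4 ± 35.6 in control (log2 changes 3.40 and 3.01, adjusted p = 2.9e-04 and 0.0060). Runx1, a transcription factor induced by denervation, had 86.5 ± 24.8 and 67.8 ± 42.8 CPM against 8.49 ± 5.88 (3.42 and 2.81, adjusted p = 3.1e-04 and 0.0065). In atrophy neither was a DEG with limbs paired by animal (2.44 and 2.16, adjusted p = 0.15 for both). In recovery, Myog was at 59.8 ± 56.4 CPM and Runx1 at 10.7 ± 7.92, neither a DEG (adjusted p = 0.94 and 0.75).

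The regulators upstream of FoxO were mixed. Of 23 tested, 8 were higher and 1 lower in atrophy, 0 and 1 in recovery, and 8 and 3 in repeated atrophy, against 20.3% and 2.33%, 4.4% and 3.33%, and 28.1% and 6.24% of all rows. Rescaled, 1 was higher and 1 lower in atrophy (4.73% and 4.95% of all rows), and 2 and 6 in repeated atrophy (13.1% and 12.1%). Prkaa1, an AMPK catalytic subunit (log2 change 1.43, adjusted p = 8.5e-04), and Stk4, the kinase MST1 (1.24, adjusted p = 5.9e-04), rose most in repeated atrophy. Ppargc1a, a coactivator of mitochondrial genes (-1.17, adjusted p = 0.0029), Irs1, an insulin receptor substrate (-1.15, adjusted p = 2.4e-04), and Prkaa2, the other AMPK catalytic subunit (-0.99, adjusted p = 0.0024), fell most. Ppargc1a was not a DEG when limbs were paired within animals by a block (-0.99, adjusted p = 0.068).

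Partners of the F-box ligases and other muscle ligases were counted in the same way. Of 14 SCF subunits and ubiquitin-conjugating enzymes tested, 7 were higher in atrophy, 0 in recovery and 8 in repeated atrophy and none was lower, against 20.3% and 2.33%, 4.4% and 3.33%, and 28.1% and 6.24% of all rows higher and lower. Rescaled, 1 was higher in atrophy (4.73% of all rows), 1 lower in recovery (6.04%) and 2 higher in repeated atrophy (13.1%). Cand1, the exchange factor of SCF complexes (log2 change 1.32, adjusted p = 4.6e-04), Ube2d3, a conjugating enzyme used by RING ligases (0.95, adjusted p = 0.011), and Nedd8, the modifier that activates cullins (0.80, adjusted p = 0.0016), rose most. Ube2d3 was not a DEG rescaled (0.57, adjusted p = 0.084) or without repeated atrophy animal 2 (0.76, adjusted p = 0.11). Of 18 other muscle ligase genes, 4 were higher and 1 lower in atrophy, 3 and 2 in recovery, and 6 and 3 in repeated atrophy, against 20.3% and 2.33%, 4.4% and 3.33%, and 28.1% and 6.24% of all rows. Rescaled, the balance in atrophy turned to 1 higher and 4 lower (4.73% and 4.95% of all rows), and 3 were higher and 4 lower in repeated atrophy (13.1% and 12.1%). Klhl41 (1.59, adjusted p = 0.0015) and Klhl40 (1.58, adjusted p = 3.1e-04), cullin adaptors of the sarcomere, and Nedd4 (1.19, adjusted p = 0.0012) rose most. Trim72, the membrane repair protein MG53, fell from 478 ± 101 CPM in control to 103 ± 41.4 in repeated atrophy (-2.26, adjusted p = 6.8e-06), and was at 318 ± 18.7 in atrophy (-0.56, adjusted p = 0.063). Wwp1 (-0.81, adjusted p = 0.0024) and Mul1, a mitochondrial ligase (-0.63, adjusted p = 0.0030), fell as well.

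Of 14 TRAF6 signalling genes tested, 4 were higher and 0 lower in atrophy, 1 and 2 in recovery, and 6 and 1 in repeated atrophy, against 20.3% and 2.33%, 4.4% and 3.33%, and 28.1% and 6.24% of all rows. Rescaled, 2 were higher and 2 lower in atrophy (4.73% and 4.95% of all rows), and 3 and 2 in repeated atrophy (13.1% and 12.1%). Tnfrsf12a (log2 change 1.62, adjusted p = 0.028), Sqstm1, an autophagy receptor that binds TRAF6 (1.41, adjusted p = 0.0035), and Ube2n, its conjugating enzyme (1.10, adjusted p = 0.0011), rose most in repeated atrophy, and Tab2, a TAK1 adaptor, fell (-0.81, adjusted p = 0.0015). Tnfrsf12a was not a DEG rescaled (1.26, adjusted p = 0.089) or without repeated atrophy animal 1 or 2 (1.03 and 1.81, adjusted p = 0.22 and 0.073), without recovery animal 1 or 2 (adjusted p = 0.051 and 0.053), or with all 12 right limbs as control (1.4, adjusted p = 0.10). Of 15 known substrates of the ligases, 1 was higher and 3 lower in both atrophy and repeated atrophy, and 1 higher and 0 lower in recovery. Over all rows, 20.3% were higher and 2.33% lower in atrophy, 4.4% and 3.33% in recovery, and 28.1% and 6.24% in repeated atrophy. Rescaled, 0 substrates were higher and 3 lower in atrophy (4.73% and 4.95% of all rows), and 1 and 3 in repeated atrophy (13.1% and 12.1%). Myod1, the myogenic factor degraded through atrogin-1, rose (1.52, adjusted p = 7.9e-04), and the thick filament genes Myh7 (-2.34, adjusted p = 1.4e-04), Mybpc2 (-2.04, adjusted p = 7.5e-04) and Myl2 (-1.21, adjusted p = 0.0011) fell in repeated atrophy. The summed muscle fibre markers were 57330 to 70360 CPM in repeated atrophy and 47610 to 77260 in atrophy against 67810 to 122700 in control, and their part in these falls was not tested.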

How the data were processed

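RNA of the TA of 12 aged rats, both limbs (24 samples), was analysed from the table deposited by the authors. The CPM values deposited by the authors are relative to the total of each library, while the study's methods name a median of ratios scaling. Per the paper's methods and the labels, 59-base paired-end reads of poly-A directional libraries prepared in random order were cleared of contaminants with bowtie2 2.2.5, aligned to rn7 with STAR and processed in Partek Flow. Which annotation and counter were used is not given in the sources used here. Another 3 value columns, which match no sample record, were not used, and neither were any raw reads. The low values were whole multiples of a step (within 0.02 of a whole number) in 86.9% to 88.4% of cases, so reads were not treated as recovered and no count test was run. One read is worth at most 0.0530 CPM.

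Of 14271 rows, 28 duplicates were dropped. Rows above 0 in at least 3 of the fitted samples were tested as log2(CPM + 1), a pseudocount that understates changes of low genes, with the trend option of limma 3.58.1 under R 4.3.3: 14031 rows over the 18 limbs of TTX animals in 1 fit, and 13822 rows over sham left and control limbs. The test was tested on simulated data for atrophy against control (11139 genes, 200 changed) and found 17.6% of genes changed by 1.5-fold, 77.4% of those changed by 2-fold and 100% of those changed by 4-fold (8 false calls). The simulated limbs were independent, with no pairing by animal, and all genes shared the same dispersion. Fbxo32 and Trim63, whose SDs in control exceeded their means, varied more than that. These rates therefore do not carry over to them. Correlations used exact permutation tests over all 362880 pairings (scipy 1.17.1). Alternatives were TMM rescaling, a pseudocount of 0.1, a filter at a mean of 10 CPM and none, all 12 right limbs as control, each animal left out, and the animal as a block. A block or pairing by animal means a fixed animal effect unless a random effect is named. Limbs pair through the animal, as the labels give it. Over 10619 rows the deviations of left and right limbs from their group means correlated by 0.12 on average in TTX animals (below 0 in 3 of 9) and by 0.74 in sham animals. The animals were separate, but p-values also carry technical spread.

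The members were given by name, and the 7 further gene lists and the marker lists were chosen with earlier results of these data known. From each list, up to 3 rises and 3 falls with the largest change among DEGs of repeated atrophy were named, and the 5 rows nearest to Fbxo32, Trim63 and Foxo1; 1 gene that this rule names is not reported here. Promoter windows are from RefSeq (GRCr8), read by symbol. Gene coordinates of the table are in rn7.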

Additional observations from a re-analysis of the deposited data

Results flagged for a closer look

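In the control limbs, 10 genes were screened for a limb far from the next one, on CPM without log transformation. The gap had to be larger than 0.493 of the range of the 9 limbs, Dixon's 95% critical value. For normally distributed values, chance passes it in about 1 group in 20. Fbxo32 at 92.4 CPM (gap 0.731 of the range) and Trim63 at 1925 CPM (0.844) passed it, both in the right limb of atrophy animal 3. The left limb of this animal was the highest of its group for both genes. On the log2(CPM + 1) scale its right limb was at 6.545 for Fbxo32, with 4.782 next and 1.717 lowest. That gap is under the critical value. For Trim63 the values were 10.91, 8.675 and 6.995, a gap still over it.

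Effects that differed between treated groups were picked up by the test of the difference between these groups. From atrophy to recovery the log2 change was -2.88 for Fbxo32, -2.88 for Trim63, -1.25 for Trim54, -1.52 for Foxo1 and -0.97 for Foxo4. From recovery to repeated atrophy it was 2.58 for Fbxo32, 2.45 for Trim63, 1.47 for Trim54 and 1.13 for Fbxo30. In each of these the groups did not overlap. The right limbs of the recovery animals were themselves low in Fbxo32, Trim63, Foxo1 and Foxo4. None of the differences passed the threshold with the animal as a fixed block in limma. There the values for Trim54 were -0.90 (adjusted p = 0.59) and 1.06 (adjusted p = 0.11). With a random animal effect, all of them still passed except that of Foxo1 from atrophy to recovery. The cause was not tested.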

How the results depend on the processing

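With the animal as a fixed block, the number of DEGs among the 10 genes went from 3 to 0 in atrophy and from 3 to 0 in recovery against control, from 5 to 0 between atrophy and recovery, and from 4 to 0 between recovery and repeated atrophy, whether rescaled or not, and from 3 to 5 in repeated atrophy against control. A random animal effect also gave 5 there, as did a filter at a mean of 10 CPM, which tests fewer rows. Unlike the fixed block, the random effect kept every DEG of atrophy and of recovery against control. It also kept those between atrophy and recovery, except Foxo1, and all those between recovery and repeated atrophy. Rescaling alone gave 1 in atrophy and 3 between atrophy and recovery. Leaving out each animal gave 0 to 4 in atrophy (0 without atrophy animal 1), 1 to 4 in recovery (1 without recovery animal 1 or 2), 3 to 6 in repeated atrophy (5 without recovery animal 2, 6 without atrophy animal 3), 1 to 5 between atrophy and recovery (1 without recovery animal 1 or 2), 1 to 5 between recovery and repeated atrophy (1 without recovery animal 1 or 2 or repeated atrophy animal 2, 2 without repeated atrophy animal 1), and 0 throughout between both atrophies and for sham. A group left with 2 animals shares the spread of the others. A pseudocount of 0.1, no filter and all 12 right limbs as control kept every count within 1.5 times. Shares over all rows are not given for these settings, the random effect, the filter or the fits without an animal. Their counts can therefore not be set against the whole table.

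Some log2 changes turned sign. In atrophy they were Fbxo21 (-0.18 rescaled, -0.24 rescaled with block), Foxo1 (-0.02, -0.15 with block, -0.39 with both), Foxo3 (-0.15, -0.26 and -0.45, and -0.18 to 0.35 on leaving out animals) and Foxo4 (-0.33 to 0.04). In recovery they were Fbxo32 (0.18 with block, 0.07 with both), Trim63 (0.01 with block) and Traf6 (0.01 with block, -0.50 to 0.19 on leaving out animals). In repeated atrophy Fbxo21 turned (-0.10 rescaled, -0.07 with both). Between both atrophies, Fbxo32 (0.35 with block, 0.24 with both) and Trim63 (0.38 and 0.27, and -0.83 to 0.10 on leaving out animals) turned, and so did Foxo3 (0.10 and 0.03). Between atrophy and recovery Trim55 (-0.03 with block) and Fbxo21 (0.04 with both) turned, and between recovery and repeated atrophy Foxo1 (-0.39 with block, -0.61 with both) and Foxo4 (-0.12 with both). The cause was not tested.

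Among the pairs in control limbs, Trim63 with Foxo3 passed no longer after rescaling (r = 0.61) or with a pseudocount of 0.1 (r = 0.65), and ranged from 0.50 to 0.90 on leaving out limbs, passing only without the right limb of repeated atrophy animal 1. Fbxo32 with Foxo3 ranged from 0.43 to 0.91 and Foxo1 with Foxo3 from 0.32 to 0.98, both passing without the right limb of repeated atrophy animal 1. The 3 pairs without Foxo3 passed under every alternative. Foxo3 and Traf6 had the fewest reads, and the part of depth in their spread was not tested.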
